A study of Mus musculus with 24 samples.

Results

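The nuclear-encoded subunits of respiratory chain complexes I to IV were followed in mouse retinal organoids, which are retina-like tissues that embryonic stem cells form in culture. The 58 genes were taken by symbol from a list drawn up for complexes I (36 genes), II (4), III (8) and IV (10), and each was found by its Ensembl identifier among the 33846 genes of the deposited table. All 58 passed the filter on low counts, as did 16792 genes in all. No measured value chose the members, and the list does not hold every known subunit.

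Polyadenylated RNA was sequenced from whole organoid tissue in 24 libraries. In SSCi, organoids stayed intact in static suspension. For SSCd and RWB, the optic cups were cut out on day 10 and kept in static suspension or in a rotating-wall bioreactor, a slowly turning vessel that keeps tissue floating. RWB had 2 libraries on day 18 (D18), 3 on D22 and 3 on D25. SSCd had 3 on each of D18, D22 and D28. SSCi had 2 on D18, 2 on D25 and 3 on D32. All cups and organoids received N2 supplement, taurine, 9-cis retinal and IGF1. Fetal bovine serum, B27 without vitamin A and non-essential amino acids followed from D18 for the dissected cups and from D26 for SSCi, so medium cannot be told apart from culture method at D25 or from day within a culture. The wild-type stem cells came from a clone of Nrl-GFP transgenic blastocysts or from the R1 clone, and the labels do not say which clone gave which library. Rod marker genes summed to between 29.4 and 120 CPM (counts scaled to a common library size) in the D18 libraries and to between 1290 and 7839 CPM in all later ones. Markers of red blood cells stayed below the filter, and markers of mesenchyme reached 4368 CPM in SSCi D18 replicate 1 alone. In whole tissue, fewer cells of a type and less RNA per cell cannot be told apart.

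The respiratory chain passes electrons from NADH (complex I) and succinate (complex II) through complex III to oxygen at complex IV, and complexes I, III and IV pump protons that drive ATP synthase. Most of its subunits are encoded in the nucleus, while a small core is encoded by mitochondrial DNA. Photoreceptors pack mitochondria into the inner segment, and the retina is known both for heavy oxygen use and for aerobic glycolysis.

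Many subunit genes are known targets of the nuclear respiratory factors NRF1 and NRF2 (an ETS factor also called GABP) and of YY1, so their start regions were read. RefSeq promoters on GRCm38.p6, from 250 bases before to 50 after the start, were found for 49 of the 58 members. Both strands were searched for the core of the NRF1 site, GCGCANGCG, the ETS core CCGGAAG and the YY1 core AAGATGG. At least 1 of the 3 lay in the promoters of 28 of the 49 members (57.1%), against 19.2% of all 32851 promoters in the table. Members were counted per gene, by a match in any of its promoters, and the whole table per promoter, here and below. The table holds genes of every kind, and its promoters had a median GC content of 52.7% where the members' had 59%. The NRF1 core was in 13 members (26.5%, against 6.25% of all), the ETS core in 11 (22.4%, against 8.86%) and the YY1 core in 8 (16.3%, against 6.34%). The more general GC box GGGCGG was in 20 members (40.8%, against 35.7%), CCAAT in 18 (36.7%, against 37.4%) and TATAAA in 4 (8.16%, against 13.6%). A match describes letters and is not a measured binding site.

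Printed below are 5 promoters, 4 of them to show the kinds of match and Ndufa10 because it is among the most stable risers and holds none of the 3 cores. All run 5′ to 3′ on the gene's own strand, which is the minus strand for each, with matches to the NRF1, ETS and YY1 cores in capitals. Cox8a (chr19:7217567-7217866) has 2 ETS matches, Ndufs3 (chr2:90904672-90904971) 2 on opposite strands, Cox6a1 (chr5:115348909-115349208) 3 NRF1 matches, of which 2 overlap on opposite strands, and 1 ETS match, and Ndufb8 (chr19:44555393-44555692) 1 YY1 match near its 3′ end. Ndufa10 lies at chr1:92473709-92474008.
Cox8a: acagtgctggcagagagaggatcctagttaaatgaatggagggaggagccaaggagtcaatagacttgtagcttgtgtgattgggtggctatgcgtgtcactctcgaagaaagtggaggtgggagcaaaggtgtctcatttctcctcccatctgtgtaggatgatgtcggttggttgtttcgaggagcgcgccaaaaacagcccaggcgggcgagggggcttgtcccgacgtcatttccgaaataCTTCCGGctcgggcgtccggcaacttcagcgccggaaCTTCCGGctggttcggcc
Ndufs3: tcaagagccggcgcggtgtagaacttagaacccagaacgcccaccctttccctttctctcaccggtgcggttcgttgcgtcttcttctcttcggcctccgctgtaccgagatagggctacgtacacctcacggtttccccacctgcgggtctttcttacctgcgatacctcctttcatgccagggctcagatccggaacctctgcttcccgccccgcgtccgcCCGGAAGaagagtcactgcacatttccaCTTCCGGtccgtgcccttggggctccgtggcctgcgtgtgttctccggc
Cox6a1: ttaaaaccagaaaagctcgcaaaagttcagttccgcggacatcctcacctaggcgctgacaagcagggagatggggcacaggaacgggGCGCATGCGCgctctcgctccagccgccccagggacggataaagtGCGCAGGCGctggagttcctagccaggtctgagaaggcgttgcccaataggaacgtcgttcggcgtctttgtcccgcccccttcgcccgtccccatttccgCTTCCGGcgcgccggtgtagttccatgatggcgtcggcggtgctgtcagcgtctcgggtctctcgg
Ndufb8: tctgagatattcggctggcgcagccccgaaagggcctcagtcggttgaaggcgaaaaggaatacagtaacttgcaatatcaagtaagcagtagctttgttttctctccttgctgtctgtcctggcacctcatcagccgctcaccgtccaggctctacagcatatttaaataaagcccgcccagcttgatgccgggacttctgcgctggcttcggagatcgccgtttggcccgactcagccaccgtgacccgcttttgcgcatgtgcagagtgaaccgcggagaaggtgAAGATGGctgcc
Ndufa10: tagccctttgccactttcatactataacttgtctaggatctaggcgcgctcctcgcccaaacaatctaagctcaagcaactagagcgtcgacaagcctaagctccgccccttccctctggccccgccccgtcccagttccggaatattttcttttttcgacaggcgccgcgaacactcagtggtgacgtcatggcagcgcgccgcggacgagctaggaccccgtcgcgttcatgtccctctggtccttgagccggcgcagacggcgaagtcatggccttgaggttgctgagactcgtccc

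The members' summed level had its highest group mean in the rotating culture on its last day. All 58 together reached 10901 ± 5326 CPM (SD, n = 3) in RWB D25, 9203 ± 3327 in RWB D22 and 5634 ± 1717 (n = 2) in RWB D18. SSCd stood at 6128 ± 1337, 7859 ± 3089 and 6937 ± 962 CPM on D18, D22 and D28 (n = 3 each). SSCi stood at 4526 ± 687 (n = 2), 4844 ± 212 (n = 2) and 5480 ± 314 CPM (n = 3) on D18, D25 and D32. The RWB D25 libraries ranged from 7653 to 17047 CPM and lay above every SSCi library, of which the highest was at 5829, but they overlapped both later SSCd groups. Of the 58 genes, 44 had their highest group mean in RWB D25, 11 in RWB D22 and 3 in SSCd D22. The lowest mean was in an SSCi group for 54 genes, 28 of them in D18, 16 in D25 and 10 in D32. These orders are descriptions, with no test over the list and no share over all genes beside them. The RWB D25 means lean on replicate 1, at 17047 CPM for all 58, where replicates 2 and 3 held 8003 and 7653 CPM. Those 2 lay below RWB D22 replicate 1 (12774 CPM) and SSCd D22 replicate 1 (11258 CPM).

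**Figure D1:**
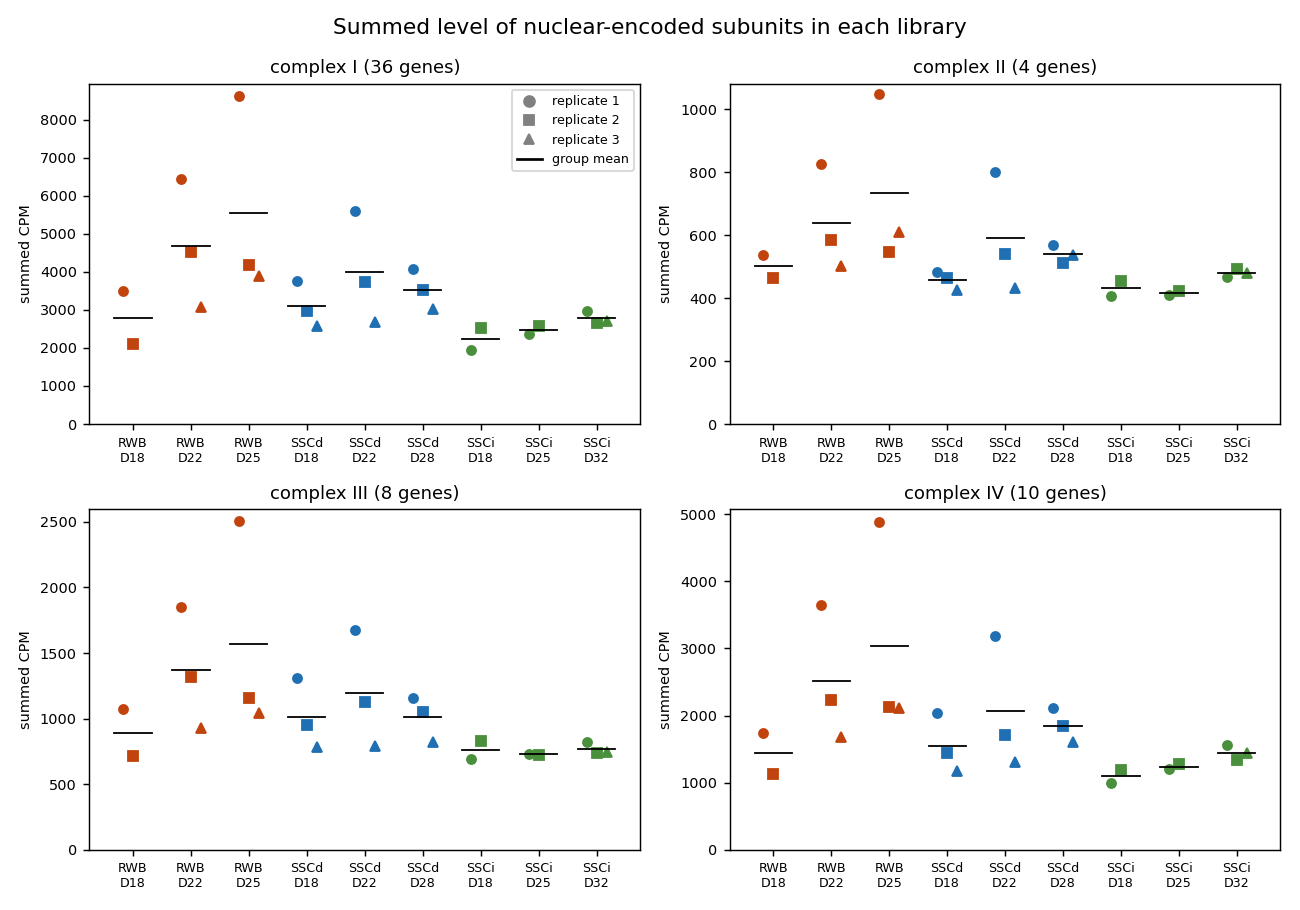
Summed CPM of the subunits of each complex (vertical axis) in the 24 libraries, by culture and day. Colours mark cultures, symbols the replicate number and lines group means. RWB D25 replicate 1 lies above the other libraries in all 4 panels, at 8615 CPM for complex I and 4879 CPM for complex IV.

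The members varied together. Over the 9 group means of log2 CPM, a member's correlation with the mean of the other 57 had a median of 0.92, and 50 of the 58 were over 0.8. The 9 means share their libraries, so this describes joint variation only. Ndufa6, a complex I accessory subunit, was the least alike (r = 0.55), with its highest mean in SSCd D22 and its lowest in SSCi D32. Sdha, the flavoprotein of complex II, came next (r = 0.56) and varied least, 1.65-fold between its highest and lowest group. Ndufa4 varied most, 5.38-fold.

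Part of this joint variation followed the library rather than the group. Replicate 1 gave the highest value of its group for 57 of the 58 members in RWB D22 and in SSCd D22, for 54 in RWB D25 and for 44 in SSCd D18, and replicate 3 gave the lowest for 53, 54, 36 and 46. In those 4 libraries numbered 1 the 13 mitochondrially encoded subunit genes took 8.26% to 13.1% of counts, against 2.46% to 5.76% in the other 20. The members took 0.705% to 1.38% in these 4 and 0.399% to 0.852% in the others. Genes with a mean transcript length of up to 1000 bases, as 42 of the 58 members have, deviated the same way, with a median of 0.19 above the group on the log2 scale in RWB D25 replicate 1, where the members' median was 0.70. The part of this axis in the results below was not tested, and its values are given beside them. Total counts per library ran from 13284632 to 21604446.

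**Figure D2:**
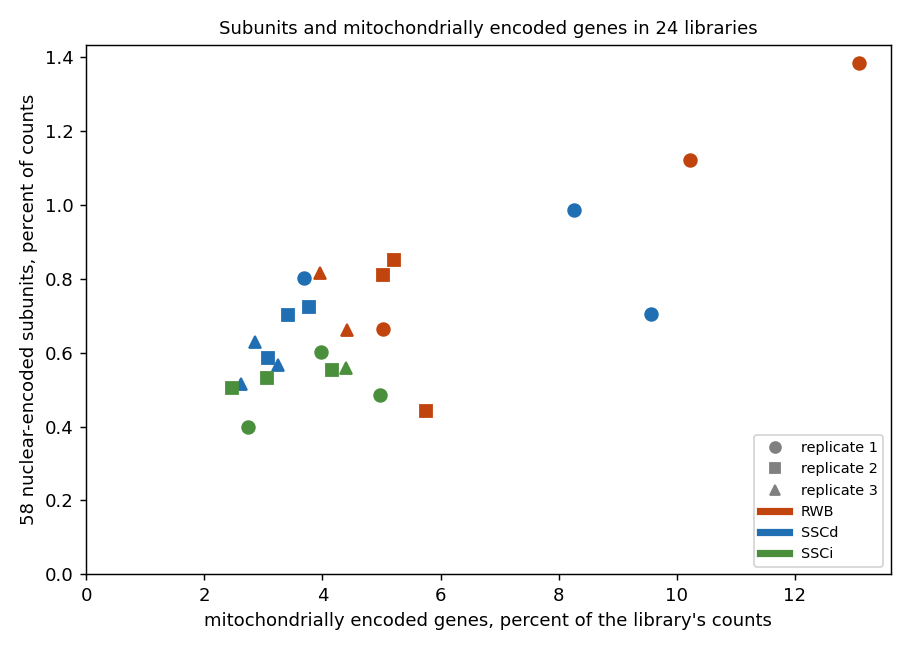
Share of each library's counts in the 58 nuclear-encoded subunits (vertical axis, percent) against the share in mitochondrially encoded genes (horizontal axis, percent), 1 point per library. The 4 libraries numbered 1 named in the text stand to the right of all others, at 8.26% or more, and 3 of them hold the 3 largest shares of the nuclear-encoded subunits.

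The clearest difference between cultures was that of RWB and SSCi on D25. Of the 58 members 19 were higher in RWB (32.8%), where 3.6% of all genes tested were higher, and none was lower, where 5.08% of all genes were. All 58 log2 fold changes were above 0, with a median of 1.00 against 0.04 for all genes. The called genes were 9 of 36 in complex I, 1 of 4 in complex II, 2 of 8 in complex III and 7 of 10 in complex IV. In none of them did the libraries of the 2 groups overlap, but 52 of all 58 members had no overlap. The share of all genes without overlap is not given here, so no result is drawn from it.

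In complex I the riser with the smallest p was Ndufa1, a small membrane-bound accessory subunit (chrX:37187588-37191163). It stood at 211, 100.2 and 88.6 CPM in the RWB D25 libraries and at 38.7 and 35.6 CPM in SSCi D25. Every RWB library was more than double either SSCi library, and the log2 fold change was 1.84 (SE 0.39, edgeR adjusted p = 0.00679).

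Ndufa4 had the largest change and the highest level per length of the 58, 569 CPM per kb averaged over all libraries. Named for complex I, and listed there here, it has since been assigned to complex IV. Its values were 1558, 434.2 and 332.5 CPM in RWB D25 and 152.8 and 113 CPM in SSCi D25, so that replicate 1 stood far above the others though none overlapped. The log2 fold change was 2.54 (SE 0.62, edgeR adjusted p = 0.0153), and 1.50 without RWB replicate 1, when the call was lost.

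Other complex I risers were the iron-sulfur electron carrier Ndufs1 (log2 fold change 0.77), the accessory subunits Ndufa5 (1.71), Ndufb2 (1.57), Ndufb8 (1.54), Ndufb3 (1.48), Ndufa9 (1.14) and Ndufa10 (1.09). Their edgeR adjusted p lay between 0.0123 and 0.0393. Ndufs7 (0.18) and Ndufb7 (0.26) had the smallest differences of the 58.

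In complex II the membrane anchor Sdhc was called, only just. Its RWB D25 libraries held 223.1, 84.6 and 125 CPM and its SSCi D25 libraries 59 and 79.8 CPM, so the lowest RWB library stood close above the higher SSCi one. The log2 fold change was 1.05 (SE 0.33, edgeR adjusted p = 0.0498).

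In complex III, Uqcrb, a small ubiquinone-binding subunit, stood at 497.5, 169.3 and 135 CPM in RWB and at 79.8 and 62.5 CPM in SSCi. The groups lay apart, again with replicate 1 the highest by far. Its log2 fold change was 1.91 (SE 0.52, edgeR adjusted p = 0.0278), and Uqcrq rose with it (1.62, edgeR adjusted p = 0.046). Uqcrh, the hinge protein and most abundant complex III member per length at 522 CPM per kb, was not called, at 704, 298.3 and 237.7 CPM against 197.9 and 163.3 CPM.

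Complex IV had the largest share of called genes. Cox8a, its smallest nuclear-encoded subunit, stood at 460.1, 257.6 and 309.7 CPM in RWB and 126.6 and 156.7 CPM in SSCi, which gives a difference of 1.27 on the log2 scale (SE 0.29, edgeR adjusted p = 0.0111). All 3 RWB libraries were well above both SSCi libraries. Cox7b (2.01), Cox6c (1.65), Cox7a2 (1.64), Cox6b1 (1.60), Cox5a (1.12) and Cox5b (0.99), which surround the catalytic core, rose too, with edgeR adjusted p from 0.0272 to 0.0477. Cox4i1, one of the larger nuclear-encoded subunits, was not called, at 668.9, 307.2 and 367.6 CPM against 226.7 and 280.1 CPM.

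The count of 19 rested on few libraries. It was 1 without RWB D25 replicate 1, 25 without replicate 2, 31 without replicate 3 and 0 without either SSCi D25 library, and 0 in a fit of these 5 libraries alone, while the members' median stayed between 0.57 and 1.19 in every setting run. With a replicate block it was 45, and without the 4 libraries of high mitochondrial share 10, of which 9 were among the 19. Paired by number, the median log2 ratio was 1.64 for replicate 1 (58 of 58 above 0) and 0.65 for replicate 2 (55 of 58). Short-transcript genes as a whole had a median of 0.36 and long ones 0.02, while the members had 1.00 and 0.94. For 83 cytosolic ribosomal protein genes, also short and listed after the values were seen, it was 0.03. Their share of counts was likewise highest in RWB D25 replicate 1, at 3.77% against 2.83% and 2.56%, so they are not free of the library axis. Sums of cell type markers also stood apart between RWB D25 and SSCi D25. Markers of cones summed to 231 to 338 CPM in RWB and 113 to 124 CPM in SSCi, those of bipolar cells to 158 to 191 and 62.1 to 66 CPM, and those of mesenchyme to 13 to 51 and 7.47 to 11.7 CPM. Among the cone markers Opn1sw overlapped (64.2 to 128 against 94.7 to 101 CPM), while Gnat2, Arr3 and Pde6h were higher in RWB. Prkca made up most of the bipolar sum, and Vsx1 overlapped. Of the mesenchyme markers Postn and Col1a2 were higher in RWB at low levels, while Col1a1, Tagln, Dcn and Lum overlapped. Lower in RWB were the sums for retinal progenitors (97 to 150.2 against 512 to 646 CPM), cell cycle (146 to 270 against 475 to 552 CPM), ganglion cells (62 to 73.7 against 97.9 to 108 CPM), surface epithelium (4.65 to 7.45 against 35.4 to 41 CPM) and, narrowly, rods (2469 to 2983 against 2998 to 3115 CPM). Within these lower sums Tyms (cell cycle), Isl1 (ganglion cells), Krt8 and Krt19 (surface epithelium) overlapped. The rod markers differed in direction. Sag (1020 to 1334 against 511 to 668 CPM) and Gnat1 were higher in RWB. Nr2e3 (302 to 315 against 595 to 675 CPM), Pde6b and, barely, Prph2 were lower, and Nrl overlapped. The sums for amacrine cells, Mueller glia, pigment epithelium and muscle overlapped. The part of these in the result was not tested.

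**Figure D3:**
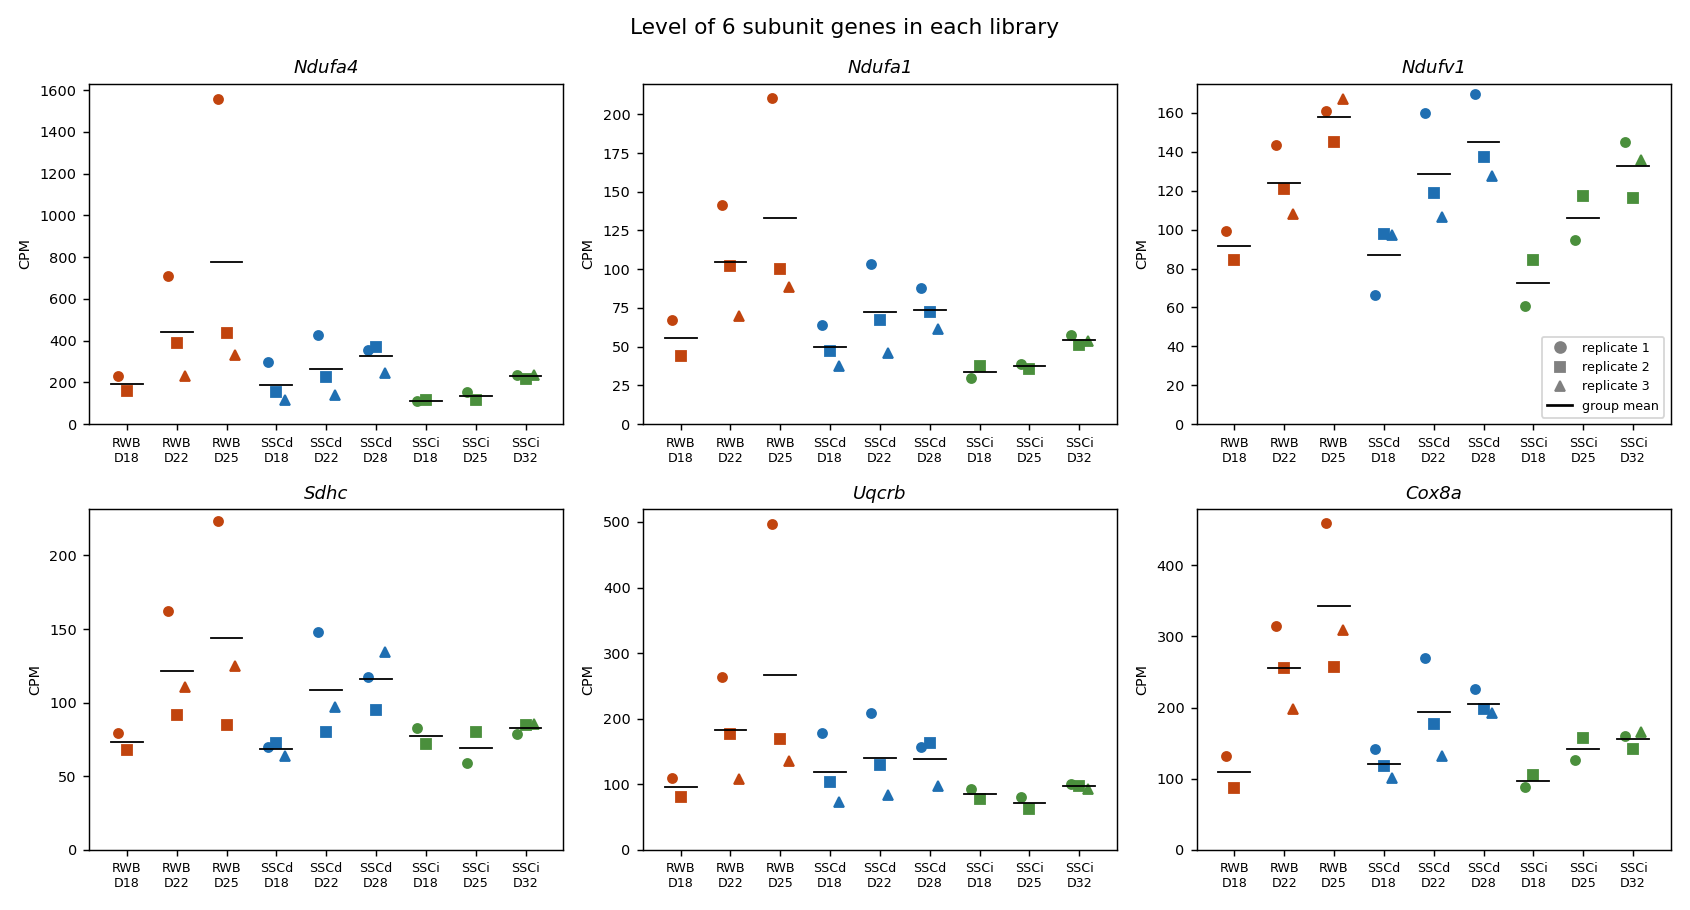
CPM of 6 subunit genes (vertical axes) in the 24 libraries by culture and day, with colours for cultures, symbols for replicate numbers and lines for group means. Ndufa4 reaches 1558 CPM in RWB D25 replicate 1, while Ndufv1 in the same group keeps to 144.8 to 167.3 CPM.

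Rotating and static culture of dissected cups gave no called member on either shared day. At D22 the count was 0 of 58, where 0.405% of all genes were higher and 1.49% lower in RWB. None had an unadjusted p under 0.05 in edgeR, the smallest edgeR adjusted p was 0.549, and DESeq2 called 0. The median was 0.20, with 51 genes above 0, and within numbers 1, 2 and 3 it was 0.16, 0.23 and 0.19. It turned to -0.07 without RWB replicate 1 and was 0.54 without SSCd replicate 1. Ndufa4 had the largest difference (0.74), with 710.8, 386.7 and 231.9 CPM in RWB and 425.3, 227.1 and 141.4 CPM in SSCd, 2 sets of values that overlap and fall in the same order of replicate number.

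At D18, 0 of 58 were called, where 0.0715% of all genes were higher and 0.417% lower. One had an unadjusted p under 0.05 in edgeR, and DESeq2 called 0. The median was -0.11 with 45 genes below 0, and it ran from -0.54 to 0.17 as 1 RWB library or the other was left out. RWB D18 replicate 1 gave the higher of the 2 values for 54 members, so the sign of the median depended on which of the 2 was used. The widest difference was that of Ndufb4 (-1.11, edgeR adjusted p = 0.736), the least abundant member per length, whose SSCd libraries held 43, 14.1 and 14.6 CPM against 13.6 and 8.57 CPM in RWB, values that nearly touch.

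Dissection alone, as SSCd against SSCi on D18, gave 0 called members as well, where 0.351% of all genes were higher and 3.51% lower in SSCd. None had an unadjusted p under 0.05, DESeq2 called 0, and the median was 0.47 with 56 genes above 0, or 0.24 without SSCi D18 replicate 1, the library of high mesenchyme markers. RWB against SSCi on D18, a comparison added after the data were seen, gave 0 called by edgeR (0 at an unadjusted p under 0.05) and 0 by DESeq2, where 0.911% of all genes were higher and 4.32% lower. Its median was 0.29, and -0.05 without RWB replicate 1.

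**Figure D4:**
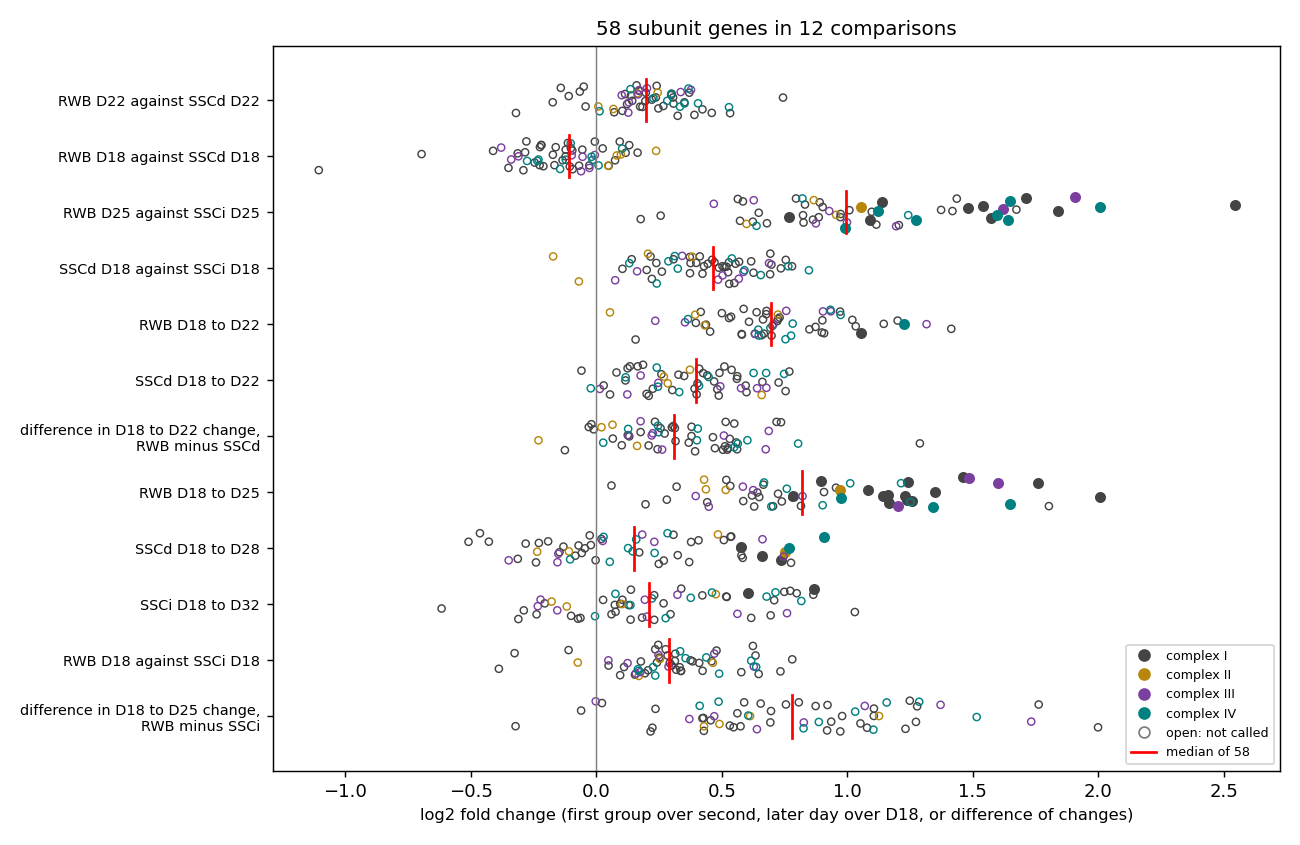
Log2 fold change of the 58 members (horizontal axis) in 12 comparisons. Colours mark complexes, filled points genes called by edgeR at an adjusted p under 0.05, and red lines the medians, which lie at 1.00 for RWB against SSCi on D25 and at 0.20 for RWB against SSCd on D22.

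Within the rotating culture, many members rose over time. From D18 to D25, 21 of 58 were higher (36.2%), against 14.9% of all genes, and 0 were lower, against 14% of all genes. All 58 fold changes were above 0, with a median of 0.82 against 0.06 for all genes. The risers were 14 of 36 genes in complex I, 1 of 4 in complex II and 3 each in complexes III and IV, and 11 of the 21 were also called in RWB against SSCi on D25, a comparison that shares the RWB D25 libraries.

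Cox8a was the riser with the smallest p. It went from 131.9 and 86.8 CPM on D18 to 314.6, 255.2 and 197.6 CPM on D22 and 460.1, 257.6 and 309.7 CPM on D25. Each later library lay above both D18 libraries. The log2 fold change was 1.23 by D22 (SE 0.29, edgeR adjusted p = 0.00966) and 1.65 by D25 (SE 0.30, edgeR adjusted p = 0.000301).

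Ndufa10, a complex I accessory subunit related to nucleoside kinases, held 89 and 93 CPM on D18 and 256.9, 156.8 and 164.9 CPM on D25. The D18 libraries nearly coincided and all D25 libraries were higher. It rose by 1.08 (SE 0.26, edgeR adjusted p = 0.00311). Cox8a and Ndufa10 were the members whose call for this interval held in all 12 alternatives run.

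Ndufv1, the subunit that binds NADH and its flavin, went from 99.1 and 84.2 CPM to 161.2, 144.8 and 167.3 CPM (log2 fold change 0.78, edgeR adjusted p = 0.0104). Here replicate 1 did not stand out. Ndufs3, a core subunit of the arm that reaches into the matrix, rose by 0.89, Ndufa8 by 1.17, Ndufb10 by 1.35, Ndufb8 by 1.76 and Ndufa4 by 2.01. Ndufab1, which is also the mitochondrial acyl carrier protein, rose by 1.24.

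Beyond complex I, Sdhc rose by 0.97, and in complex III the core protein Uqcrc1 by 1.20, Uqcrb by 1.48 and Uqcrq by 1.60. Uqcrc1 went from 45.5 and 40.5 CPM to 161.8, 58.3 and 77 CPM, with no overlap. In complex IV, Cox6a1 rose by 0.98 and Cox6c by 1.34 beside Cox8a. The edgeR adjusted p of these 6 lay between 0.0179 and 0.0495. The count of 21 was 3 without RWB D18 replicate 2, 7 without RWB D25 replicate 1, 5 in a fit of these 5 libraries and 16 without the 4 libraries of high mitochondrial share, and a replicate block gave 42. Short-transcript genes as a whole had a median of 0.19, and the ribosomal protein genes -0.49. Rod markers summed to 29.4 to 50.4 CPM on D18 and 2469 to 2983 CPM on D25, and cell cycle markers to 2051 to 2249 and 146 to 270 CPM, and their part in the rise was not tested.

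The interval from D18 to D22 shares its D18 libraries with the longer one. From D18 to D22 in RWB the median was 0.70, all 58 genes were above 0, and 2 were called, Cox8a and Ndufv3 (3.45% of members, against 6.01% of all genes higher and 4.88% lower). Ndufv3, an accessory subunit with a short and a long form, went from 200.3 and 89.2 CPM to 373.2, 320 and 209.6 CPM (1.06, SE 0.34, edgeR adjusted p = 0.0489), so that the lowest D22 library barely passed the higher D18 one. Without RWB D18 replicate 2 or RWB D22 replicate 1 the count was 0, and with a replicate block it was 22. In SSCd over the same days 0 of 58 were called, where 7.23% of all genes were higher and 5.13% lower. There 9 members had an unadjusted p under 0.05 in edgeR, DESeq2 called 2, and the median was 0.40, or 0.02 without SSCd D22 replicate 1. Leaving out SSCd D22 replicate 3 gave 4 calls. In these 2 groups libraries with the same number deviated together, and a replicate block called 5.

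The difference between RWB and SSCd in the change from D18 to D22 was tested as an interaction. It gave 0 called members, with 0% of all genes called in either direction, 0 members at an unadjusted p under 0.05 in edgeR and 0 calls by DESeq2. The median difference was 0.31, with 53 genes above 0. The like test between RWB and SSCi for D18 to D25, added after the data were seen, gave 0 called members in edgeR and in DESeq2, where 2.88% of all genes were called, with 7 members at an unadjusted p under 0.05 and a smallest edgeR adjusted p of 0.154. Its median was 0.78 with 55 genes above 0, and a replicate block called 7. A larger rise of the members in RWB than in SSCi was therefore not shown gene by gene.

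In the static cultures the counts of members called were 6 and 2. Against the 21 in RWB this order was not tested and did not hold in all settings. Without the 4 libraries of high mitochondrial share, 16 members were higher in RWB, 16 in SSCd and 15 in SSCi over their whole spans, and in fits of the compared groups alone 5, 9 and 17. From D18 to D28 in SSCd, 6 of 58 were higher (10.3%, against 17.5% of all genes) and 0 lower (against 17.1%), a smaller share than over all genes. The 6 were Cox6a1 (0.91), Cox8a (0.77), Sdhc (0.75), Ndufv1 (0.74), Ndufa10 (0.66) and Ndufs3 (0.58). The members' median was 0.15, with 35 genes above 0 and 23 below, and it turned to -0.02 without SSCd D18 replicate 3. All 6 were among the 16 called without the 4 libraries of high mitochondrial share. The count was 1 without SSCd D18 replicate 3 or SSCd D28 replicate 1, 2 without SSCd D18 replicate 2, and 12 with a replicate block.

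Ndufv1 held 66.3, 97.5 and 97 CPM in SSCd D18 and 169.6, 137.2 and 127.8 CPM in SSCd D28. No library overlapped (SE 0.19, edgeR adjusted p = 0.00552), and its call for this interval held in all 13 alternatives run. Ndufs3 stood at 32.8, 28.1 and 26.7 CPM and then at 43.3, 45.3 and 42.1 CPM, also without overlap.

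From D18 to D32 in SSCi, 2 of 58 were higher (3.45%, against 16.2% of all genes) and 0 lower (against 20.5%). Ndufv1 went from 60.6 and 84.6 CPM to 145.2, 116.4 and 136.1 CPM (log2 fold change 0.87, SE 0.22, edgeR adjusted p = 0.00402). Ndufs3 went from 26.7 and 27.6 CPM to 42.6, 40.5 and 40.8 CPM (0.61, SE 0.22, edgeR adjusted p = 0.0383), with no overlap. The median was 0.21, with 44 genes above 0 and 14 below. Ndufa4 (1.03), at 110.6 and 113.8 CPM on D18 and 237.1, 214.9 and 235.4 CPM on D32, was not called (edgeR adjusted p = 0.176). A fit of these 5 libraries alone called 17 higher and 1 lower, and a replicate block called 14. Ndufv1 lost its call without SSCi D18 replicate 1, when 0 members passed, and Ndufs3 without any 1 of the 5 libraries.

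Ndufv1, Ndufs3, Ndufa10, Cox8a and Sdhc were thus each called in 3 or 4 of the 12 comparisons, some of which share libraries, and 29 of the 58 members in none. The share of all genes called in at least 1 comparison is not given here. SSCi D18 to D32 alone called 16.2% of all genes higher and 20.5% lower, so no result about the members is drawn from these counts. Ndufa6 had values below 0 in the static cultures, at -0.51 in SSCd by D28 (edgeR adjusted p = 0.166) and -0.62 in SSCi by D32 (edgeR adjusted p = 0.124). Its SSCi libraries held 67.4 and 89.6 CPM on D18 and 51.3, 52.2 and 50.2 CPM on D32, without overlap but short of a call.

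The longer transcript of Ndufv3 had a larger share on later days in static culture. The transcript of 1582 bases took 18.4% of the gene's estimated counts in SSCd D18, 21.1% in D22 and 28.7% in D28, and in SSCi 22.6%, 26.8% and 31.5% on D18, D25 and D32. In SSCi the D18 libraries lay between 21.3% and 23.9% and those of D32 between 29.8% and 34%. RWB had means of 23.5%, 22.5% and 24.4% on D18, D22 and D25, its last day. Its libraries spread widely, from 18.8% to 28.3% on D18 and from 21.5% to 27.2% on D25. The latter overlapped those of SSCi D25 (25.4% to 28.2%), so no difference in course between RWB and static culture is shown. The shorter transcript of 493 bases took most of the remainder, 64.9% to 79.8% as a group mean. These shares are descriptions, with no test.

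Some subunits have alternative isoforms that are used in low oxygen or in other tissues, and 3 of these were lower in RWB on D18 and D22, days on which 0 of the 58 members were called against SSCd. Cox4i2, which replaces Cox4i1 in low oxygen, held 23.6, 18.5 and 26.9 CPM in RWB D22 and 109.3, 112.3 and 99.5 CPM in SSCd D22. The groups were far apart, with a log2 fold change of -2.22 (edgeR adjusted p = 0.00666). Its difference was -2.66 on D18 against SSCd (edgeR adjusted p = 0.0198) and -2.15 on D25 against SSCi (edgeR adjusted p = 0.00607). The D22 call was lost without RWB D22 replicate 2. The D25 call was lost without SSCi D25 replicate 2 and in the compared groups alone, and the D18 call without RWB D18 replicate 2 or SSCd D18 replicate 1 and in the compared groups alone (largest edgeR adjusted p = 0.0618 for D22, 0.129 for D25 and 0.445 for D18).

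Ndufa4l2, a target of the hypoxia-inducible factor and a relative of Ndufa4, held 10.2, 14.5 and 22.6 CPM in RWB D22 and 86.9, 98.3 and 78.4 CPM in SSCd D22 (-2.47, edgeR adjusted p = 0.00773). On D25 it held 1.03, 9.66 and 6.68 CPM in RWB and 49.7 and 88.8 CPM in SSCi (-3.56, edgeR adjusted p = 0.000406). The RWB libraries were lower on both days, and the D25 call was lost in the compared groups alone (edgeR adjusted p = 0.0722). At D22 the call was lost without RWB replicate 1 or replicate 2 (largest edgeR adjusted p = 0.0625). The D18 difference from SSCd was -2.95 (edgeR adjusted p = 0.0231) and lost its call in 6 of 12 alternatives.

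Cox6b2, the testis form of Cox6b1, was lower in RWB on D22 (-1.64, edgeR adjusted p = 0.00115), on D18 (-1.44) and against SSCi on D25 (-2.08, edgeR adjusted p = 9.5e-05). Unlike those of Cox4i2 and Ndufa4l2, the calls of Cox6b2, Cox6a2, Cox7a1 and Cox7a2l were checked in no alternative setting. Per length, Cox4i2 made up 3.23% to 7.46% of Cox4i1 and Cox4i2 together in RWB D22 and 13.8% to 29.5% in SSCd D22. Ndufa4l2 made up 0.934% to 6.06% and 12.1% to 27.3% of its pair in the same groups, and Cox6b2 1.82% to 5.5% and 7.06% to 13.8%. The Cox4i2 share in RWB lay below every static library on all days.

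Both static cultures had lower shares of Cox6b2 on their last day, 5.59% ± 1.08 in SSCd D28 against 13.7% ± 5.17 in D18 (SD, n = 3 each), and 5.80% ± 1.45 in SSCi D32 (n = 3) against 19.3% ± 1.21 in D18 (n = 2). Its level fell by 1.17 and by 1.67 on the log2 scale over these spans (edgeR adjusted p = 0.000577 and 3.58e-05). The heart and muscle isoforms Cox6a2 and Cox7a1 reached at most 3.50 CPM in any library. At these low levels Cox7a1 was lower in RWB than in SSCd on D18 (-2.17, edgeR adjusted p = 0.0284), and Cox6a2 (-2.16) and Cox7a1 (-1.73) were lower in RWB than in SSCi on D18 (edgeR adjusted p = 0.0339 and 0.0334). Cox6a2 rose from D18 to D22 in RWB (2.38, edgeR adjusted p = 0.00818) and in SSCd (1.27, edgeR adjusted p = 0.0484). Both rose from D18 to D25 in RWB, Cox6a2 by 2.75 (edgeR adjusted p = 0.000813) and Cox7a1 by 1.46 (edgeR adjusted p = 0.0162). Cox8b reached at most 0.570 CPM, and Cox8c was at 0 counts throughout. Cox7a2l, a factor of supercomplex assembly, was abundant, at 167 to 550 CPM, and fell by 0.72 in SSCd and by 0.87 in SSCi over the same spans (edgeR adjusted p = 0.0263 and 0.0141).

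**Figure D5:**
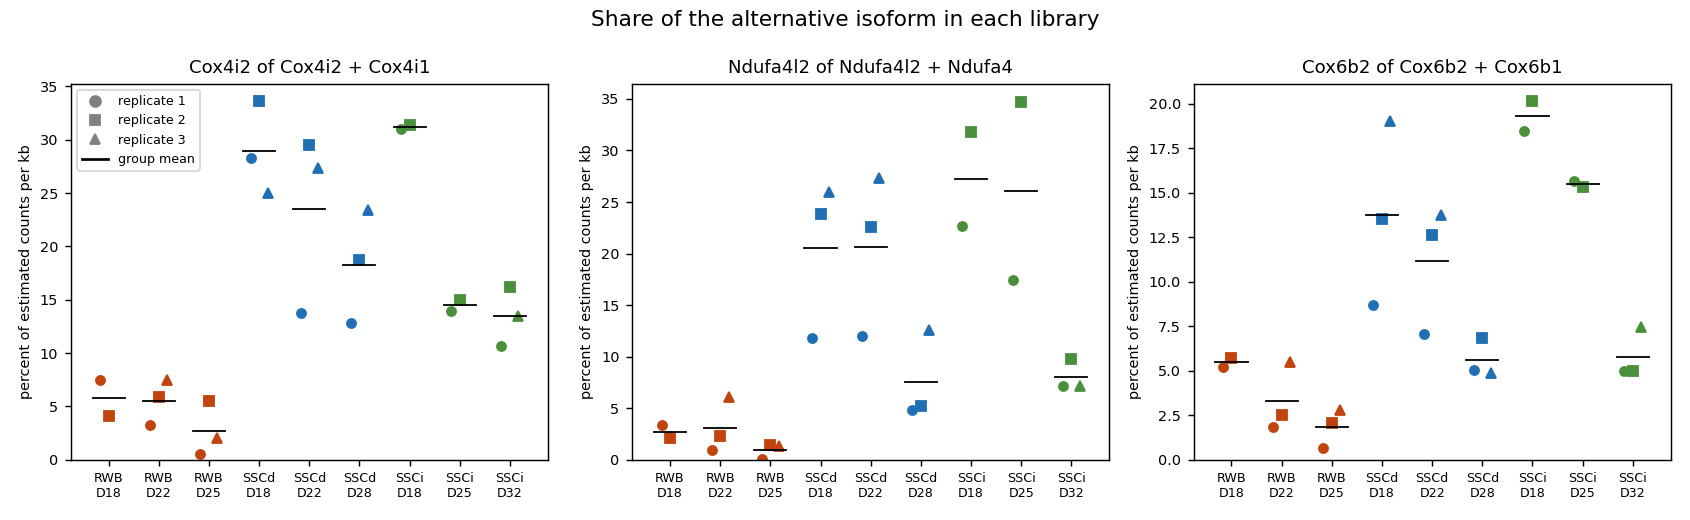
Share of the alternative isoform in the summed level of both isoforms, as percent of estimated counts per kb of transcript (vertical axes), in the 24 libraries. Colours mark cultures, symbols replicate numbers and lines group means. RWB libraries lie lowest for Cox4i2, at most 7.50%, where SSCd D18 libraries reach 25% to 33.6%.

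Of 20 listed glycolysis genes, many of them targets of the same oxygen-sensing factor, 10 were lower and 0 higher in RWB than in SSCd at D22, with a median of -1.36 beside the members' 0.20. Over all genes 1.49% were lower and 0.405% higher. Aldoc (-2.30), Gpi1 (-1.62) and Pgk1 (-1.43) had the smallest p. Of 10 further genes of the low oxygen response 4 were lower and 0 higher (median -1.27). From D18 to D25 within RWB, 9 of the 20 glycolysis genes were higher and 0 lower (median 1.03), where 14.9% of all genes were higher and 14% lower.

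Other mitochondrial lists give the setting. The 13 mitochondrially encoded subunits, such as mt-Nd1 and mt-Co1, had 0 calls in all 12 comparisons. Their median was 1.05 in RWB against SSCi on D25, where 1 of them had an unadjusted p under 0.05 in edgeR. There mt-Nd1 held 10085, 2701 and 2035 CPM in RWB and 3516 and 1843 CPM in SSCi. For mt-Co1 the values were 38920, 16375 and 13134 CPM against 14699 and 9321 CPM. In both genes RWB replicate 1 stood far above the rest, and the other libraries overlapped. ATP synthase had 6 of 16 genes higher in that comparison (median 1.13), among them the catalytic beta subunit Atp5b (1.04), Atp5k (1.84) and Atp5f1 (1.47), where 3.6% of all genes were higher. From D18 to D25 in RWB 4 of 16 were higher, against 14.9% of all genes. Cycs, the electron carrier cytochrome c, was higher on D25 in RWB than in SSCi (1.80, edgeR adjusted p = 0.0346). It held 171.6, 60.4 and 39.2 CPM in RWB and 32.6 and 19.1 CPM in SSCi, with RWB replicate 1 far above the others. That library was also the highest of its group for Atp5b, Atp5k and Atp5f1. Calls of single genes on these other lists, here and below, were checked in no alternative setting.

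Of 13 citrate cycle genes 5 were higher in RWB than in SSCi on D25, against the same 3.6% of all genes, among them Idh3a (1.23), Fh1 (1.15), Idh3g (0.89) and Idh3b (0.77). Suclg2, the GTP-forming subunit of succinyl-CoA ligase, fell in each culture over its whole span, by 1.99 in RWB, by 2.42 in SSCd and by 2.67 in SSCi. Of 41 assembly factors tested 1, Ndufaf5 (1.48), was higher on D25 in RWB than in SSCi.

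Of 14 regulators of mitochondrial biogenesis, 3 rose and 1 fell from D18 to D25 in RWB, where 14.9% of all genes rose and 14% fell, so these shares are near those of all genes. The coactivator Ppargc1a (PGC-1 alpha) held 2.12 and 2.77 CPM in RWB D18 and 21.8, 21.4 and 17.3 CPM in RWB D25, against 7.4 and 7.12 CPM in SSCi D25. It rose in each culture over its whole span, by 3.04 in RWB, 1.78 in SSCd and 1.94 in SSCi, as did Ppargc1b (5.21, 3.89 and 4.55) and the receptor Esrrg (1.44, 1.03 and 1.43). Pprc1, a related coactivator linked to growth, fell by 1.29, by 1.18 and by 1.54. Further regulators were called over the static spans only. Tfam (-0.90 in SSCd and -0.93 in SSCi) and Gabpb1 (-0.58 and -0.89) were lower, as was Nrf1 in SSCd (-0.57). Esrrb was higher (2.10 in SSCd and 4.33 in SSCi). In the interaction of D18 to D25 between RWB and SSCi, Ppargc1a was the called regulator (2.74, edgeR adjusted p = 0.0148). Its difference on D25 alone was 1.47 (edgeR adjusted p = 0.0144), so the interaction also holds a lower level in RWB than in SSCi on D18. Of the 58 members 0 passed the same interaction test.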

How the data were processed

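Polyadenylated RNA of 24 organoid samples was sequenced as stranded, paired-end libraries, per the labels' protocols. The authors deposited estimated counts per gene and per transcript, which are not normalized, and 42.1% of the gene values are whole. Build GRCm38.p5, limma 3.32.2, edgeR 3.13.9 and kallisto 0.42.5 are listed, with no role, per the submitters' processing notes. How transcripts were summed to genes, and from which annotation release, is not given in the sources used here.

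Estimated counts were rounded, filtered with filterByExpr by group and scaled by TMM. The robust quasi-likelihood test of edgeR 4.0.16 (R 4.3.3) was run on a single model of the 9 groups over the 24 libraries, where the biological coefficient of variation had a median of 0.256, with Benjamini-Hochberg adjustment over 16792 genes and a threshold of 0.05. "Called" means past it. The SE of a log2 fold change is its size divided by the root of the F statistic. The test was also run on simulated counts, drawn independently per library with the same coefficient of variation for all genes. Those counts hold no axis shared by the genes of a library, so the run cannot show how the test behaves with it. CPM are TMM-scaled. Symbols were found for 33331 identifiers, and gene positions and transcript lengths come from GENCODE M21 on GRCm38. CPM per kb divides by whole transcript length, which understates short transcripts. Counts of near-identical copies and pseudogenes can share reads, so such values are uncertain. Variance within groups was 14 to 190.3 times that of counting, and no library was taken for a second deposit of another. Totals ran from 13284632 to 21604446 per library. The repeats are separate experiments, per the series' design text.

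The members, gene lists and comparisons were chosen with earlier results of these data known, and 2 comparisons were added later, as named. By the naming rule any member may be named. Values in every library go to the called member with the smallest p per comparison and complex and to the members most abundant per length, and of other lists up to 4 called genes each and all low-oxygen or tissue isoforms. Further members shown by library, such as Ndufb4 and Ndufa6, were chosen after their values were seen. Beyond this rule, further regulators and single cell type markers are named to show what a list or sum holds. Alternatives were RLE size factors, total counts, no filter, DESeq2 1.42.0, the compared groups alone, a replicate block, each library left out, and 4 libraries of high mitochondrial share left out. Calls of single genes were followed through them for the members, Ndufa4l2 and Cox4i2 only.

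Whether a replicate number pairs libraries was checked by correlating deviations from group means, with pairing taken to hold where all of 3 pairs were over 0.1. RWB D22 with SSCd D22 met this (0.43, 0.20 and 0.43), as did SSCd D18 with D22 (0.41, 0.12 and 0.33). SSCd D18 with D28 did not, and other comparisons have 2 pairs. Nothing in the labels gives the meaning of a number.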

Additional observations from a re-analysis of the deposited data

How the results depend on the processing

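Directions of the members' counts held in the settings run, with higher calls only, except 1 lower member in SSCi D18 to D32 without the 4 libraries of high mitochondrial share and in the compared groups alone. The numbers of members called did not hold. For RWB against SSCi on D25 (19), the count was 8 with no filter, 45 with a replicate block, 10 without the 4 libraries, 0 in the compared groups alone and 32 with DESeq2, and 0 to 31 with 1 library left out. For RWB D18 to D22 (2) it was 1 with RLE size factors, 5 with total counts, 1 with no filter, 22 with the replicate block and 5 with DESeq2, and 0 to 5 with 1 left out. For SSCd D18 to D22 (0) it was 3 with total counts, 5 with the replicate block and 2 with DESeq2, and 0 to 4 with 1 left out. For RWB D18 to D25 (21) it was 42 with the replicate block and 5 in the compared groups alone, and 3 to 29 with 1 left out. For SSCd D18 to D28 (6) it was 12 with the replicate block and 16 without the 4 libraries, and 1 to 5 with 1 left out. For SSCi D18 to D32 (2) it was 9 with total counts, 1 with no filter, 14 with the replicate block, 16 without the 4 libraries, 18 in the compared groups alone and 7 with DESeq2, and 0 to 2 with 1 left out. For the difference in D18 to D25 change between RWB and SSCi (0) it was 7 with the replicate block. The other 5 comparisons stayed at 0 in every setting. Apart from fits with fewer libraries or genes, the cause was not tested. The replicate number is a shared number only, outside the pairs named under processing. A left-out library of a pair leaves 1, assumed to vary like the other groups.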
